A study of Mus musculus with 8 samples.

Results

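The endoplasmic reticulum (ER) folds proteins that are destined for the cell surface or for secretion, and an activated cytotoxic T cell makes many of both. Hsp70 and Hsp90 chaperones, lectin chaperones and protein disulphide isomerases fold the chains that enter through the Sec61 channel, and chains that fail to fold are sent back to the cytosol by ER-associated degradation (ERAD). When unfolded protein builds up, the sensors IRE1, ATF6 and PERK start the unfolded protein response, in which ATF6 and spliced XBP1 switch on the genes of this machinery. The genes described here are 36 named members of that machinery, of 55536 genes in the count tables, chosen by symbol. All 36 symbols were found by their Ensembl identifiers (GRCm38, Ensembl 96), and they fall into 7 roles, namely the Hsp70 system, Hsp90, lectin chaperones, thiol and proline isomerases, sensors and transcription factors, ERAD, and the translocon.

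Messenger RNA was measured in CD8+ T cells from the lymph nodes of C57BL/6 mice that carry the transgenic OT-1 receptor, which recognises the SIINFEKL peptide of ovalbumin, on a Rag-1 knockout background, from donors between 5 and 12 weeks of age with sexes randomised. Cells of both groups were cultured with 100 nM SIINFEKL for 2 days and then for 2 days in 20 ng/ml recombinant human IL-2. The GC7 group (4 libraries) had 10 µM GC7 during these last 2 days, and the Mock group (4 libraries) had the acetic acid vehicle instead. GC7 is a spermidine analogue that blocks DHPS, the enzyme that starts hypusination of the translation factor eIF5a, and it is a drug that may act on more than this enzyme. The comparison asks how these genes differ between T cells expanded with and without the drug. The study's methods describe the libraries of a group as biological replicates but do not name the animal behind each library.

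Total counts were 20045041 to 25284730 in Mock and 17528776 to 23449164 in GC7. Mitochondrially encoded genes held 1.83% to 1.94% of the counts in Mock and 0.194% to 0.225% in GC7, and all 14 calls among the ER genes were kept with scaling factors computed without these genes. The T cell markers were high in every library (*Cd3d*, *Cd3e*, *Cd3g*, *Cd247*, *Cd8a*, *Cd8b1*, *Lck* and *Thy1* summed to 4647 to 5451 CPM, that is TMM-scaled counts in each 1000000, in Mock and 3909 to 4255 CPM in GC7). Of these markers *Cd8a* was called higher in GC7 (log2 fold change 0.48). *Cd3e* (-0.23), *Cd3g* (-0.37), *Cd247* (-0.26), *Lck* (-0.64) and *Thy1* (-0.53) were called lower, and *Cd3d* and *Cd8b1* were not called. Plasma cells are rich in the ER machinery, and of the 8 B cell and plasma cell markers *Ms4a1* had no counts in any library, *Mzb1* had none in Mock and 0.130 ± 0.177 CPM (SD, n = 4) in GC7, and *Jchain* was at 3.02 ± 0.295 CPM in Mock and 0.178 ± 0.190 CPM in GC7. The sum over that list was 14.5 to 17.6 CPM in Mock and 17.8 to 24.3 CPM in GC7, of which *Sdc1*, called higher, made up 4.38 ± 0.261 and 14.3 ± 2.94 CPM and *Cd79b*, called lower, 7.49 ± 1.45 and 4.42 ± 0.485 CPM. The dendritic cell list went from 134 to 181 CPM in Mock to 42.2 to 50.3 CPM in GC7, nearly all of it H2-Ab1 (147 ± 22.3 and 40.6 ± 3.57 CPM) while H2-Aa was at 0.0363 ± 0.0485 and 0.140 ± 0.0592 CPM and *Zbtb46* rose from 0.457 ± 0.158 to 4.11 ± 0.682 CPM (adjusted p = 3.49e-07), and the stromal list went from 51.5 to 56.2 CPM to 30.2 to 32.1 CPM, nearly all of it *Pecam1*, with *Col3a1* at 0. The myeloid list was at 5.73 to 11.1 CPM and the CD4 T cell and NK cell lists at 1.4 CPM or less in every library. The part of these lists in the changes of the ER genes was not tested. In bulk libraries a smaller number of cells of one kind and less RNA in each cell cannot be told apart. Library Mock 2 stood apart from the other Mock libraries on the second principal component (5.98% of the variance, with 85.4% on the first, which separated the groups). All 14 calls among the 36 genes were kept when Mock 2 was left out.

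The promoters of these genes were searched for the ER stress response element (ERSE), to which ATF6 and NF-Y bind in ER chaperone promoters. It was read as the letters CCAAT, any 9 bases and CCACG, on both strands, in the 300 bases from 250 before to 50 after the transcription start (RefSeq, GRCm38.p6). Windows were found for 28 of the 36 genes, and not for *Hyou1*, *Sil1*, *Manf*, *Hspa13*, *Atf6*, *Derl1*, *Sec61a1* and *Ssr2*. *Derl2* had 2 windows and *Fkbp2* 3, and a gene was counted if any of its windows matched. The letters were present in 9 of the 28 genes (32.1%), against 37 of all 27025 genes with a window (0.137%) and 16 of the 8436 that were also tested for expression (0.190%). The element is one of ER chaperone promoters and these genes were chosen as ER genes, so the larger share is no independent result. The matches are shown because the letters were found in a larger share of these genes than of all genes with a window. Each is written along the strand that reads CCAAT first, with the fixed letters in capitals.
Calr: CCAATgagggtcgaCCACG
Canx: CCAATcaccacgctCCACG
Creld2: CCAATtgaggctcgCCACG
Derl3: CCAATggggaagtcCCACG
Dnajc3: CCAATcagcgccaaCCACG
Hsp90b1 (nearer the start): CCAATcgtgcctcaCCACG
Hsp90b1 (farther from the start): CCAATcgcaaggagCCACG
Hspa5: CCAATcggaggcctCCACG
Pdia6: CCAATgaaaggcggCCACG
Syvn1: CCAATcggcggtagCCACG

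In *Hspa5* the match lies at chr2:34772025-34772043, 65 to 47 bases before the start. The matches of *Canx* (chr11:50325800-50325818), *Dnajc3* (chr14:118937827-118937845), *Pdia6* (chr12:17266491-17266509) and *Syvn1* (chr19:6046532-6046550) also read along the strand of the gene. Those of *Calr* (chr8:84847075-84847093), *Creld2* (chr15:88819520-88819538) and *Derl3* (chr10:75893242-75893260) read along the opposite strand. *Hsp90b1* holds a match on each strand (chr10:86705533-86705551 and chr10:86705638-86705656). All 10 matches lie within 212 bases before the start and none lies after it. A match says that these letters are present, not that a factor was bound in these cells.

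*Hspa5* and *Hsp90b1* encode the ER's Hsp70 and Hsp90, and their whole windows are given because both carry ERSE letters while only *Hsp90b1* was called changed. The *Hspa5* window spans chr2:34771840-34772139 on the plus strand and the *Hsp90b1* window spans chr10:86705395-86705694 on the minus strand, each written 5′ to 3′ along its gene with ERSE letters in capitals. The opposite-strand match of *Hsp90b1* appears as its reverse complement.
Hspa5: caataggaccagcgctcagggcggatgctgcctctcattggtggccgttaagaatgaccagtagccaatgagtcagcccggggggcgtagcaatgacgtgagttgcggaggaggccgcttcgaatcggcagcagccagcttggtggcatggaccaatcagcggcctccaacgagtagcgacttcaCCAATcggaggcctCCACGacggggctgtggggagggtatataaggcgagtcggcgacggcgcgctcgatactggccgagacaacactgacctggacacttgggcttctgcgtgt
Hsp90b1: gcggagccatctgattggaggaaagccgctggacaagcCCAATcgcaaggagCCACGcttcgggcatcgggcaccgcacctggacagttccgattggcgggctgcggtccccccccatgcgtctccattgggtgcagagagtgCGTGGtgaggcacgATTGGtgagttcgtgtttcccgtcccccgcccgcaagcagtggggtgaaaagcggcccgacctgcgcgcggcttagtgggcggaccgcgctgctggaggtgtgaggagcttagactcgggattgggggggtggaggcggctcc

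The related ERSE-II, searched as ATTGG, any 1 base and CCACG, was present in *Herpud1* (chr8:94386377-94386387, 52 to 42 bases before the start) and in *Dnajb11* (chr16:22857852-22857862, 8 to 18 bases after it). These are 2 of the 28 genes (7.14%), against 0.0444% of all genes, with the same limit on the comparison as for ERSE. They are printed because *Herpud1* is one of the genes that rose, while *Dnajb11* was not called (log2 fold change 0.07, adjusted p = 0.475 with edgeR).
Dnajb11: ATTGGcCCACG
Herpud1: ATTGGgCCACG
The XBP1-type element TGACGTGG was in none of the 28 genes and in 0.714% of all genes. The C/EBP-ATF letters TGATGNAA were in 1 of the 28 genes, *Herpud1* (chr8:94386317-94386324), against 4.51% of all genes.

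**Figure D1:**
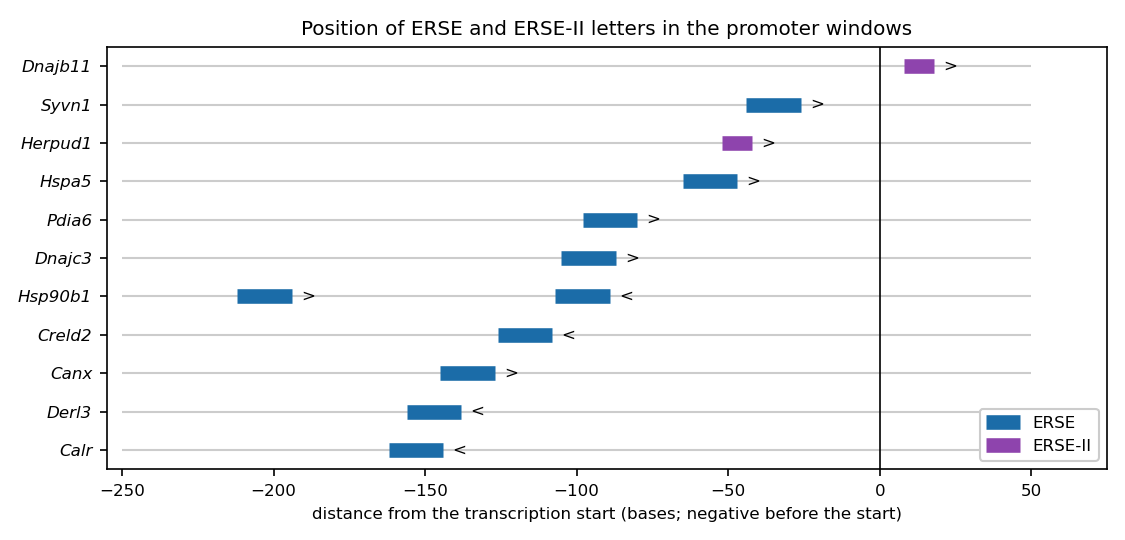
Each row is a gene, the grey line its promoter window, and the horizontal axis the distance from the transcription start in bases. Blue blocks are ERSE matches and purple blocks ERSE-II matches, with > for a match on the strand of the gene and < for one on the opposite strand. All ERSE blocks lie before the start, from 212 bases (the farther of both in Hsp90b1) to 26 bases (the end of the match in Syvn1), and Dnajb11 alone has a block after it.

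Of the 36 genes, 35 passed the filter of more than 3 CPM in at least 4 libraries and were tested with edgeR's quasi-likelihood F test, with a call at an adjusted p (FDR) under 0.01 over the 11189 genes tested. In GC7, 6 genes were higher (17.1%), against 23.0% of all genes tested, and 8 were lower (22.9%), against 23.5% of all genes. With library totals in place of TMM factors the balance turned, to 8 higher and 7 lower, against 29.9% and 18.4% of all genes. With TMM, 14 of 35 in all (40.0%) were called, against 46.6% of all genes tested, so in this fit the ER genes were called no more often than genes in general. With no filter 28350 genes were tested, and the comparison went the other way. Of the 36 genes 15 were called, against 11.8% of all genes higher and 11.9% lower. That background adds the genes under the 3 CPM filter, while the ER list gained only *Derl3*, so these shares do not compare the ER genes with genes of like level. The difference was not tested. With the filter and an FDR under 0.05, 7 were higher and 10 lower, against 30.4% and 29.0% of all genes. No gene rose by more than 2-fold, against 3.17% of all genes, and 1 fell by more than 2-fold, against 5.31%. The groups did not overlap for 7 genes higher in GC7 and 11 lower, where the shares over all genes were 28.1% and 27.5%. The median log2 fold change over the 35 genes was -0.03 against 0.02 over all genes, and with library totals it was 0.07 against 0.11. The median size of the change was 0.15 on the log2 scale against 0.29 over all genes.

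**Figure D2:**
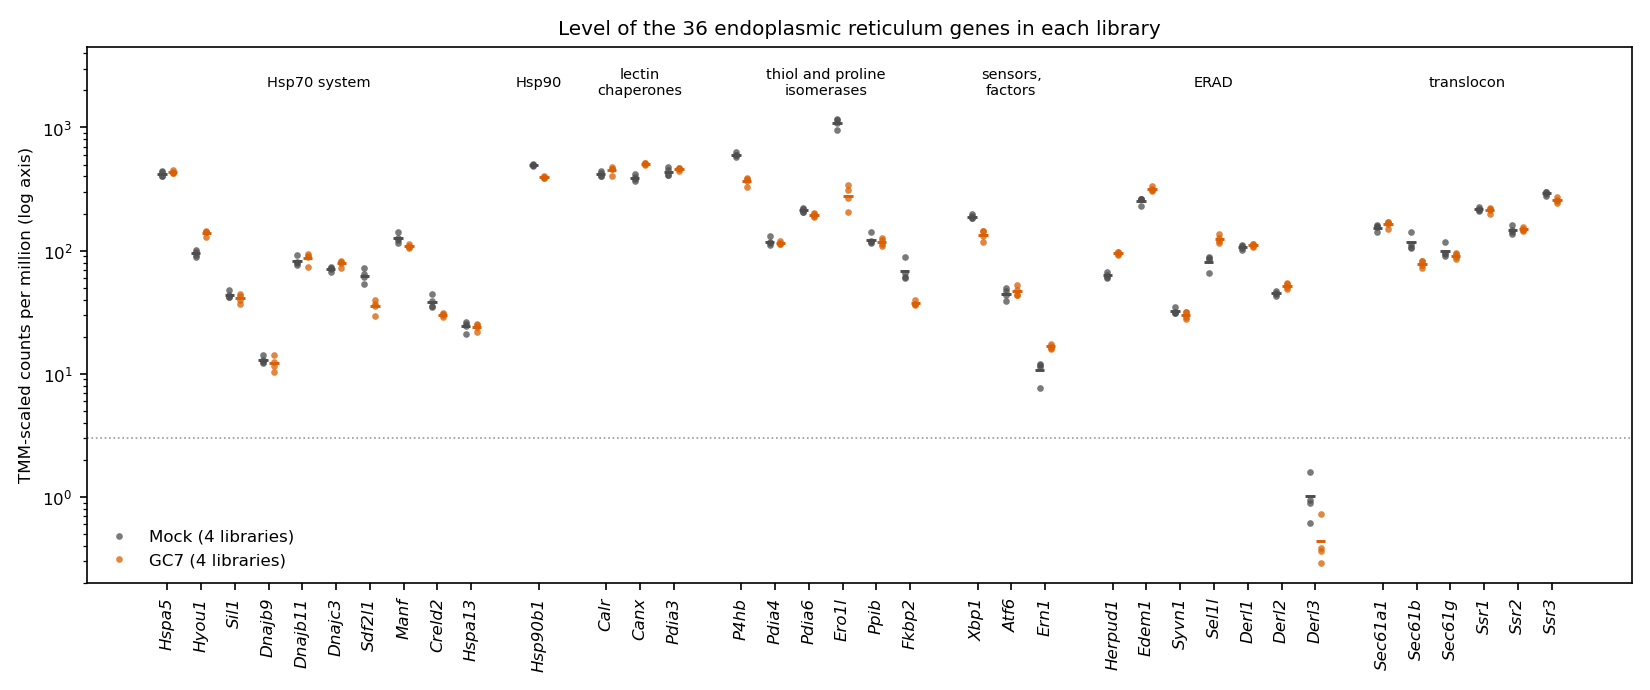
The vertical axis is the TMM-scaled CPM on a log axis, and each gene has 4 Mock points (grey) and 4 GC7 points (orange) with a bar at the mean of each group. The dotted line is the minimum of 3 CPM. Ero1l shows the widest gap, from 949 to 1176 CPM in Mock to 206 to 339 CPM in GC7, and Derl3 alone lies under the dotted line.

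The level of the ER Hsp70, BiP (*Hspa5*), which holds unfolded chains and is the usual marker of the unfolded protein response, did not pass the test. *Hspa5* (chr2:34771970-34777547) was at 434, 446, 404 and 406 CPM in the Mock libraries and at 451, 426, 435 and 430 CPM in the GC7 libraries, so that 3 of the 4 GC7 values lay inside the Mock range and 1 just above it. Its log2 fold change was 0.04 ± 0.0600 (SE, adjusted p = 0.545). Its ERSE is printed above. Over all alternatives the log2 fold change stayed between 0.01 and 0.14.

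Among the other 9 genes of the Hsp70 system, 1 rose and 2 fell (over all genes 23.0% rose and 23.5% fell). *Hyou1* (chr9:44379490-44392369), the nucleotide exchange factor of BiP that also holds unfolded chains itself, was at 98.4, 89.0, 91.7 and 102 CPM in Mock and at 145, 142, 129 and 142 CPM in GC7. Every GC7 library lay above every Mock library, and the log2 fold change was 0.55 ± 0.0646 (adjusted p = 1.56e-05). *Sdf2l1* (chr16:17130138-17132383), which works with the J protein *Dnajb11*, was at 64.1, 72.3, 53.2 and 61.5 CPM in Mock and at 36.9, 35.7, 29.4 and 39.4 CPM in GC7. It fell by 0.83 ± 0.105 on the log2 scale (adjusted p = 3.05e-05), with no overlap of the groups. *Creld2* (chr15:88819646-88826683), an ER-resident protein with EGF-like repeats, was at 39.2, 44.3, 34.9 and 35.7 CPM in Mock and at 30.1, 30.9, 29.1 and 30.6 CPM in GC7. It fell by 0.35 ± 0.0812 on the log2 scale (adjusted p = 0.00260), and with library totals the value was -0.26 (adjusted p = 0.0106), which is past the threshold no longer.

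The J proteins, which deliver clients to BiP, did not pass the test. Their log2 fold changes were -0.09 for *Dnajb9*, 0.07 for *Dnajb11* and 0.15 for *Dnajc3*, with adjusted p values of 0.482, 0.475 and 0.0539. *Sil1*, another nucleotide exchange factor, was at 43.8 ± 2.76 CPM in Mock and 41.1 ± 3.49 CPM in GC7 (log2 fold change -0.09, adjusted p = 0.326). *Hspa13*, an Hsp70 of the microsomes, was at 24.3 ± 2.34 and 24.1 ± 1.47 CPM (log2 fold change -0.01, adjusted p = 0.919). *Manf*, a small secreted protein that binds BiP, was at 116 to 142 CPM in Mock and 106 to 113 CPM in GC7, without overlap, but at an adjusted p of 0.0164 it was not called. *Manf* shares 146 exon bases with *Dcaf1* on the opposite strand, and the strand setting of the counting is not given in the sources used here. It also shares 14 exon bases with *Rbm15b* on the same strand (a mean of 1440.8 counts, against 2485.5 for *Manf*).

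*Hsp90b1* (chr10:86690209-86705509) encodes GRP94, the Hsp90 of the ER, whose clients include integrins and Toll-like receptors. It was at 508, 494, 495 and 483 CPM in Mock and at 388, 398, 391 and 405 CPM in GC7, so the lowest Mock library was far above the highest GC7 library. It fell by 0.32 ± 0.0550 on the log2 scale (adjusted p = 2.97e-04). The pseudogene *1810014B01Rik* shares 415 of its exon bases on the opposite strand at a mean of 134 counts, against 9402 for *Hsp90b1*.

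Of the lectin chaperone group, which binds newly made glycoproteins and helps to load MHC class I, the membrane-bound lectin rose and its soluble counterpart did not pass the test. *Canx* (calnexin, chr11:50293961-50325673) was at 419, 365, 395 and 380 CPM in Mock and at 511, 504, 515 and 497 CPM in GC7. All GC7 values were above all Mock values, and the log2 fold change was 0.38 ± 0.0616 (adjusted p = 2.12e-04). *Calr* (calreticulin) was at 404 to 446 CPM in Mock and 401 to 482 CPM in GC7, with a log2 fold change of 0.10 ± 0.0712 (adjusted p = 0.239). *Pdia3* (ERp57), the disulphide isomerase that works with both lectins, was at 412 to 475 and 443 to 467 CPM, with a log2 fold change of 0.07 ± 0.0654 (adjusted p = 0.376).

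In the oxidative and proline isomerase group 3 of 6 genes fell and none rose (over all genes 23.5% fell and 23.0% rose), and that of *Ero1l* was the largest decrease among the 35 genes tested. *Ero1l* (chr14:45283087-45318771) encodes ERO1 alpha, the oxidase that hands oxidising equivalents to protein disulphide isomerase, and it was at 1176, 949, 1160 and 1083 CPM in Mock and at 309, 339, 206 and 267 CPM in GC7. The highest GC7 library was far below the lowest Mock library, and *Ero1l* fell by 1.96 ± 0.135 on the log2 scale, or 3.90-fold (adjusted p = 1.59e-07). *P4hb* (chr11:120560298-120573253), protein disulphide isomerase itself, was at 602, 627, 595 and 575 CPM in Mock and at 391, 369, 331 and 383 CPM in GC7. It fell by 0.70 ± 0.0682 on the log2 scale (adjusted p = 3.09e-06). *Fkbp2* (chr19:6977741-6980501), a proline isomerase of the FK506-binding family, was at 65.4, 88.1, 60.2 and 61.7 CPM in Mock and at 36.2, 37.0, 36.6 and 39.7 CPM in GC7. It fell by 0.88 ± 0.111 on the log2 scale (adjusted p = 2.69e-05), and by 0.74 without Mock 2, its highest library.

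The other isomerases of this group were not called. *Pdia4* (ERp72) was at 119 ± 8.08 CPM in Mock and 115 ± 3.41 CPM in GC7 (log2 fold change -0.04, adjusted p = 0.609). *Pdia6* (P5) was at 207 to 222 CPM in Mock and 186 to 201 CPM in GC7, without overlap but with an adjusted p of 0.0501. *Ppib* (cyclophilin B) was at 123 ± 12.2 and 118 ± 7.66 CPM (log2 fold change -0.06, adjusted p = 0.551). The value of *Ppib* is uncertain, since it shares 825 exon bases with *Snx22* on the opposite strand (a mean of 9.4 counts, against 2553 for *Ppib*) and has stretches at least 90% identical to the tested genes *Msh3* and *Sergef*. So the called decreases of the group were those of *Ero1l*, *P4hb* and *Fkbp2*. The 2 further thioredoxin-fold isomerases, *Pdia4* and *Pdia6*, were not called, although every GC7 value of *Pdia6* lay below every Mock value.

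**Figure D3:**
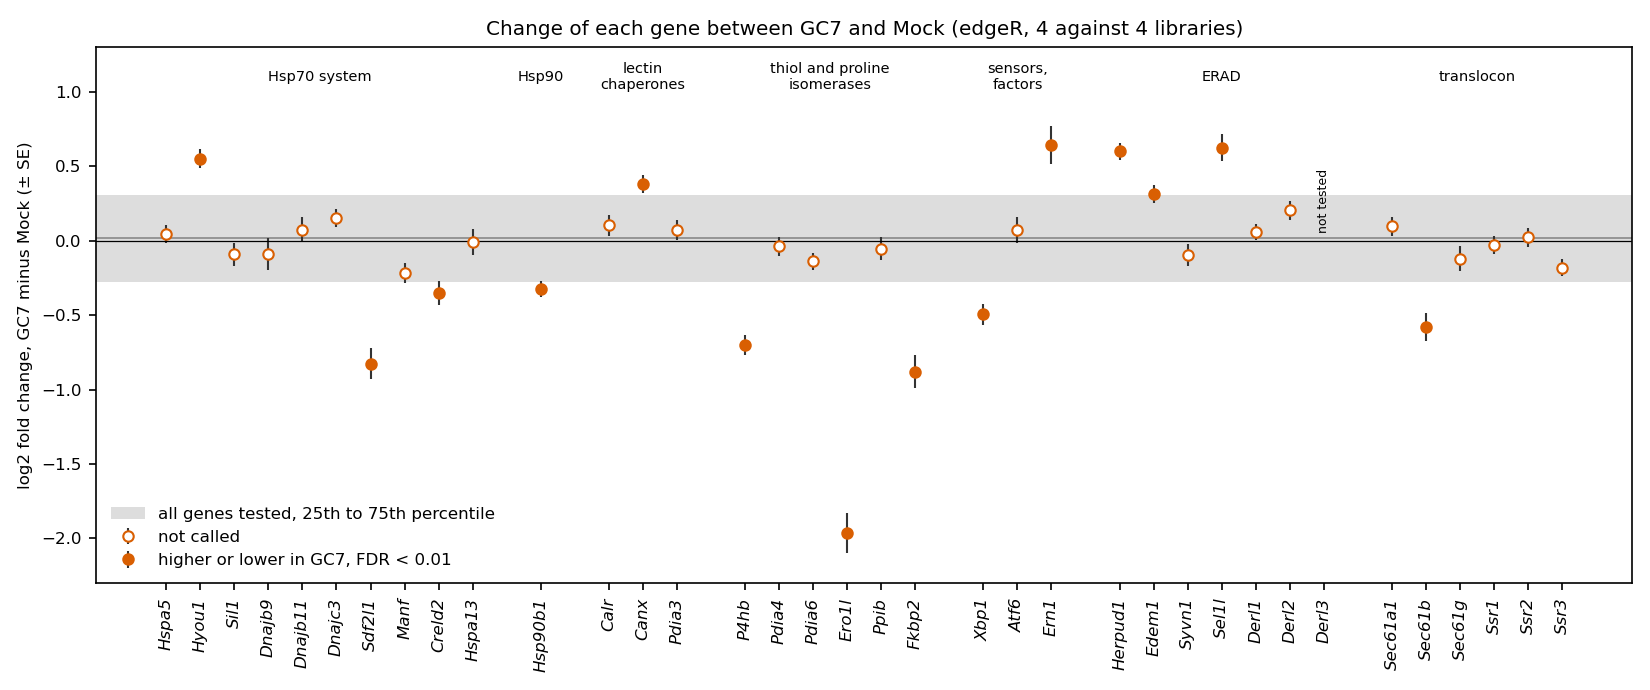
The vertical axis is the log2 fold change of GC7 minus Mock with its SE from edgeR (4 against 4 libraries), by role. Filled points passed an FDR of 0.01, open points did not, and the grey band holds the middle 50% of all 11189 genes tested (-0.27 to 0.31). Filled points lie on both sides of 0, from -1.96 for Ero1l to 0.64 for Ern1.

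The sensors and their transcription factors went different ways. *Ern1* (chr11:106394650-106487852) encodes the sensor IRE1 alpha, whose RNase splices the XBP1 mRNA, and it was at 11.4, 7.65, 11.7 and 12.1 CPM in Mock and at 16.4, 16.9, 17.5 and 16.0 CPM in GC7. It rose by 0.64 ± 0.128 on the log2 scale (adjusted p = 9.65e-04), and by 0.50 (adjusted p = 1.55e-04) without Mock 2, its lowest library. *Xbp1* (chr11:5520659-5525893), the target of that RNase, was at 198, 191, 183 and 185 CPM in Mock and at 144, 143, 117 and 132 CPM in GC7. It fell by 0.50 ± 0.0723 on the log2 scale (adjusted p = 9.18e-05), and counts per gene do not tell its spliced from its unspliced form. *Atf6*, the sensor that is cut in the Golgi to release a transcription factor, was at 44.7 ± 4.54 CPM in Mock and 46.9 ± 4.17 CPM in GC7 (log2 fold change 0.07, adjusted p = 0.496).

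Of the 6 ERAD genes tested 3 rose and none fell (over all genes 23.0% rose and 23.5% fell), with a median log2 fold change of 0.26. Whether ERAD differed from the other roles was not tested. *Herpud1* (chr8:94386438-94395377), a membrane scaffold of the ERAD complex, was at 63.9, 66.7, 60.3 and 61.5 CPM in Mock and at 94.1, 97.9, 92.4 and 97.9 CPM in GC7, and it rose by 0.60 ± 0.0580 on the log2 scale (adjusted p = 3.04e-06). *Sel1l* (chr12:91806043-91849157), the adaptor of the ubiquitin ligase HRD1, was at 83.7, 65.3, 88.6 and 86.5 CPM in Mock and at 128, 136, 120 and 116 CPM in GC7, and it rose by 0.62 ± 0.0931 (adjusted p = 1.08e-04). *Edem1* (chr6:108828641-108859356), which marks misfolded glycoproteins by trimming mannose, was at 261, 231, 262 and 264 CPM in Mock and at 317, 312, 332 and 304 CPM in GC7, and it rose by 0.31 ± 0.0633 (adjusted p = 0.00106). In all 3 genes the groups did not overlap.

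The ligase itself, *Syvn1* (HRD1), was not called. *Syvn1* was at 30.9 to 34.6 CPM in Mock and 28.0 to 31.8 CPM in GC7, with a log2 fold change of -0.10 ± 0.0709 (adjusted p = 0.260). Its value is uncertain, since it shares 91 exon bases with *Mrpl49* on the opposite strand, which had a mean of 760 counts against 659 for *Syvn1*. Of the derlins, which line the exit channel, *Derl1* and *Derl2* were not called, although *Derl2* was called with library totals (0.30, adjusted p = 0.00200) and with DESeq2 (0.20, adjusted p = 0.00996). The log2 fold changes were 0.06 for *Derl1* (adjusted p = 0.398) and 0.20 for *Derl2* (adjusted p = 0.0149), with *Derl2* at 43.0 to 47.4 CPM in Mock and 48.8 to 54.2 CPM in GC7. *Derl2* shares 231 exon bases with *Mis12* on the opposite strand, and *Mis12* was itself higher in GC7 (log2 fold change 0.66). *Derl3*, the derlin typical of secretory cells, was at 12, 21, 34 and 19 counts in Mock and 8, 8, 13 and 7 counts in GC7, too low for the filter of the main fit (1.01 ± 0.410 and 0.443 ± 0.193 CPM). With no filter *Derl3* was called lower, and with filterByExpr it was tested and not called.

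At the translocon, 1 of 6 genes was called (16.7%, against 46.6% of all genes tested). *Sec61b* (chr4:47474658-47483242), the beta subunit of the Sec61 channel, was at 108, 141, 105 and 114 CPM in Mock and at 72.4, 77.0, 81.8 and 81.7 CPM in GC7. It fell by 0.58 ± 0.0909 on the log2 scale (adjusted p = 1.60e-04). The pore-forming subunit *Sec61a1* stood at 0.10 ± 0.0642 (adjusted p = 0.220) and the gamma subunit *Sec61g* at -0.12 ± 0.0836 (adjusted p = 0.231) on the log2 scale. Of the translocon-associated proteins, which help some signal sequences to enter, *Ssr1* was at -0.03 (adjusted p = 0.697), *Ssr2* at 0.02 (adjusted p = 0.793) and *Ssr3* at -0.18 (adjusted p = 0.0151) on the log2 scale. *Ssr3* was at 280 to 300 CPM in Mock and 246 to 270 CPM in GC7 without overlap, and it was called without Mock 2 (log2 fold change -0.21, adjusted p = 0.00290). *Ssr2* has a stretch of 366 bases that is 98.6% identical to the tested gene *Rtraf*, and *Sec61g* one of 424 bases that is 99.1% identical to the tested pseudogene *Gm10177*, so the values of these 2 genes are uncertain.

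Divided by exon length, the order of the levels changed at its top. In Mock, *P4hb* (209.6 CPM per kb) and *Ero1l* (207 CPM per kb) led, ahead of *Calr* (146), *Pdia3* (139), *Hsp90b1* (123) and *Hspa5* (99.9 CPM per kb). In GC7, *Calr* (157 CPM per kb) and *Pdia3* (146) led, *P4hb* had rank 3 at 129, and *Ero1l* had rank 10 at 53.0 CPM per kb. The lowest ranks were held by *Derl3*, *Ern1*, *Hspa13* and *Atf6* in Mock (0.507, 1.31, 3.56 and 4.84 CPM per kb). Exon length here is the union of all annotated exons, so it overstates the length of genes with long alternative exons.

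All 36 genes together held 0.654% ± 0.0200 of the counts in Mock and 0.596% ± 0.0198 in GC7 (SD, n = 4). *Ero1l* alone held 0.105% ± 0.0121 and 0.0288% ± 0.00607. Without *Ero1l* the share was 0.549% ± 0.0107 in Mock and 0.567% ± 0.0141 in GC7, with overlap of the groups (0.542% to 0.565% in Mock and 0.548% to 0.580% in GC7). These are shares of the library totals, and on the TMM scale the direction of the sum without *Ero1l* turned, to 5700.2 ± 143 CPM in Mock and 5519 ± 111 CPM in GC7, again with overlap (5577 to 5843 and 5358 to 5616 CPM). The sum over all 36 genes was lower in GC7 on both scales, at 6792 ± 136 CPM in Mock and 5799 ± 163 CPM in GC7 with TMM.

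The counts of 7 pairs of partners were also compared as ratios within a library, which need no scaling between libraries. The pairs were chosen after the values were seen, so the ratios are descriptions with no test. *Ero1l* to *P4hb*, the oxidase to the isomerase it oxidises, was 1.83 ± 0.210 in Mock and 0.757 ± 0.127 in GC7, so *Ero1l* fell by more than *P4hb* did. *P4hb* to *Pdia3* was 1.37 ± 0.0585 and 0.801 ± 0.0398. *Hsp90b1* to *Hspa5* was 1.17 ± 0.0492 in Mock, above 1 in every library, and 0.909 ± 0.0363 in GC7, below 1 in every library.

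The other 4 pairs separated the groups as well. *Canx* to *Calr* was 0.928 ± 0.0750 in Mock and 1.13 ± 0.106 in GC7. *Sdf2l1* to its partner *Dnajb11* was 0.760 ± 0.0433 and 0.408 ± 0.0230. *Sel1l* to *Syvn1*, the latter with the overlap given above, was 2.51 ± 0.274 and 4.16 ± 0.319. *Sec61b* to *Sec61a1* was 0.766 ± 0.152 and 0.478 ± 0.0512, with Mock 2 at 0.992 and the other Mock libraries at 0.677 to 0.709. Mock and GC7 values overlapped for none of these 7 ratios.

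**Figure D4:**
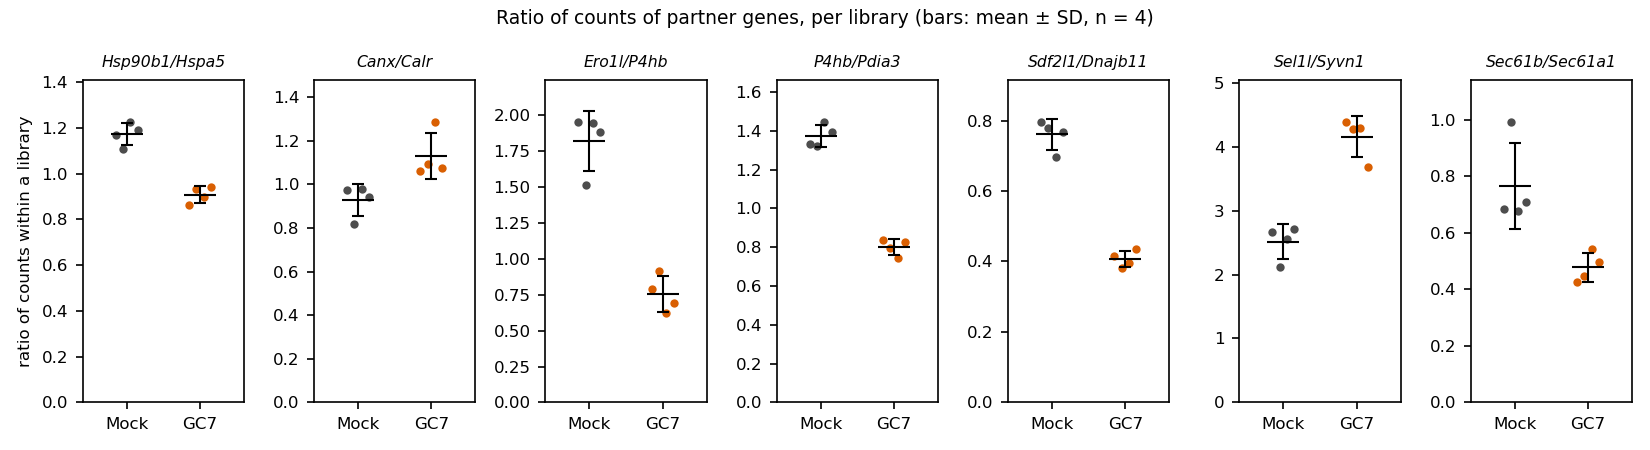
Each panel gives the ratio of raw counts of 2 partner genes in every library, with the mean and SD of 4 libraries, on an axis that starts at 0. Hsp90b1 to Hspa5 crosses from 1.11 to 1.23 in Mock to 0.862 to 0.941 in GC7, and no panel has overlapping groups.

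The genes with ERSE letters were called in both directions. Of the 8 that were tested, *Canx* rose, *Hsp90b1* and *Creld2* fell, and *Hspa5*, *Calr*, *Dnajc3*, *Pdia6* and *Syvn1* were not called, so 3 of 8 (37.5%) were called against 46.6% of all genes tested, with a median log2 fold change of -0.03. Of the 19 other tested members with a window, 4 rose and 6 fell (52.6% called), with a median of -0.06, and the difference was not tested. Outside the 36 genes, 8 tested genes carried the letters, of which 1 (*Acacb*) fell and none rose. Among these, chosen after its value was seen, was *Ero1lb*, which encodes ERO1 beta, the sister oxidase of the product of *Ero1l*. *Ero1lb* was at 15.7 ± 1.01 CPM in Mock and 19.6 ± 2.69 CPM in GC7 (log2 fold change 0.31 ± 0.101, adjusted p = 0.0177), while no ERSE letters were found in the window of *Ero1l*.

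The PERK arm, which slows translation through eIF2 alpha and raises ATF4, is not among the 36 genes. It was read together with the integrated stress response from a list of 14 genes, so the list is not a reading of PERK alone. Of these genes 5 rose and 1 fell, against 23.0% and 23.5% of all genes. By more than 2-fold 4 of the 14 rose, against 3.17% of all genes, and the difference was not tested. *Sesn2* (log2 fold change 1.37 ± 0.0565, adjusted p = 1.94e-09), a target of ATF4 that restrains mTORC1, was at 50.8 ± 1.89 CPM in Mock and 131 ± 3.29 CPM in GC7, and *Nupr1* (1.19 ± 0.115, adjusted p = 2.97e-06), a stress-induced chromatin protein, at 6.65 ± 0.986 and 15.2 ± 1.05 CPM. The other two, named after their values were seen, were the transcription factor gene *Atf3* (1.02 ± 0.0872, adjusted p = 1.05e-06) and *Chac1*, which encodes a glutathione-degrading enzyme (1.01 ± 0.199, adjusted p = 9.02e-04). Among the core genes of the arm, PERK itself (*Eif2ak3*, 0.19, adjusted p = 0.0136), *Atf4* (-0.11, adjusted p = 0.180) and *Ddit3*, which encodes CHOP (0.09, adjusted p = 0.402), were not called. *Ppp1r15a*, which encodes GADD34, the phosphatase subunit that ends the response, fell by 0.47 ± 0.0725 on the log2 scale (adjusted p = 1.33e-04). It went from 120 to 144 CPM in Mock to 84.2 to 95.4 CPM in GC7.

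The remaining signalling genes of the response (13 tested) held 4 that rose and 2 that fell (46.2% called, against 46.6% of all genes). *Atf6b*, the homologue of *Atf6*, rose by 0.49 ± 0.0853 (adjusted p = 3.48e-04) and *Mbtps2*, the protease that releases ATF6 in the Golgi, by 0.41 ± 0.0944 (adjusted p = 0.00255) on the log2 scale. *Creb3*, a related membrane-bound factor, fell by 0.60 ± 0.108 (adjusted p = 4.52e-04), and *Nfyc*, a subunit of the CCAAT-binding factor NF-Y, fell by 0.40 ± 0.0852 (adjusted p = 0.00153).

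Of 25 further ER folding enzymes tested, 5 rose and 2 fell (28.0% called, against 46.6% of all genes). *Prdx4*, a peroxiredoxin that consumes the hydrogen peroxide that ERO1 makes, fell by 1.59 ± 0.0908 on the log2 scale (adjusted p = 3.27e-08), from 100.3 to 125 CPM in Mock to 33.0 to 39.6 CPM in GC7. *Erp29*, an ER protein with a thioredoxin fold, fell by 0.61 ± 0.0870 (adjusted p = 7.67e-05). *Ppic*, a cyclophilin, rose by 0.72 ± 0.104 (adjusted p = 8.63e-05) and *Uggt1*, which re-glucosylates unfolded glycoproteins for another round with the lectins, by 0.39 ± 0.0806 (adjusted p = 0.00125). The oligosaccharyltransferase, which attaches the glycans, gave 1 call among 12 genes (8.33%), with *Rpn1* higher by 0.28 ± 0.0708 (adjusted p = 0.00459).

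Lists around the translocon and ERAD were mixed. Of 17 targeting and translocation genes 1 rose and 3 fell (23.5% called, against 46.6% of all genes), with *Srp72* at 0.53 ± 0.0802 (adjusted p = 1.15e-04) and its partner in the signal recognition particle, *Srp68*, at -0.54 ± 0.0598 (adjusted p = 1.01e-05) on the log2 scale. *Spcs2*, a subunit of signal peptidase, fell by 0.35 ± 0.0574 (adjusted p = 2.51e-04). Of 22 further ERAD genes tested 3 rose and 8 fell, against 23.0% and 23.5% of all genes, and the median log2 fold change was -0.02. *Ngly1*, which strips glycans from extracted chains, fell by 0.84 ± 0.0546 (adjusted p = 9.81e-08), and *Edem2*, the mannosidase of the family of *Edem1*, fell by 0.80 ± 0.0740 (adjusted p = 2.14e-06), while *Selenos* rose by 0.48 ± 0.0780 (adjusted p = 2.02e-04) and *Aup1* by 0.32 ± 0.0915 (adjusted p = 0.00939).

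Chaperones are kept in the ER by KDEL receptors, and cargo leaves in COPII coats. Of 17 genes tested on that list 1 rose and 4 fell (29.4% called, against 46.6% of all genes). *Kdelr2* fell by 0.24 ± 0.0641 on the log2 scale (adjusted p = 0.00662), and *Kdelr1* was at -0.12 (adjusted p = 0.141). *Kdelr3* was too low to be tested, at 1.77 ± 0.142 CPM in Mock and 0.198 ± 0.0674 CPM in GC7, with no overlap. *Sec24d*, a cargo adaptor of the coat, fell by 0.87 ± 0.0897 (adjusted p = 4.97e-06) and the cargo receptor *Surf4* by 0.52 ± 0.0558 (adjusted p = 7.81e-06), whereas the lectin receptor *Lman1* rose by 0.42 ± 0.0676 (adjusted p = 2.14e-04).

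Cytosolic and mitochondrial chaperones were read as a comparison, and of 26 tested 6 rose (23.1%) and 2 fell (7.69%), against 23.0% and 23.5% of all genes. *Hsp90aa1* fell by 0.52 ± 0.0753 (adjusted p = 9.08e-05) and *Dnajb1* by 0.55 ± 0.0565 (adjusted p = 5.20e-06) on the log2 scale. *Hspa8*, the constitutive cytosolic Hsp70, rose by 0.43 ± 0.0747 (adjusted p = 3.76e-04), and the mitochondrial co-chaperonin *Hspe1* rose by 0.92 ± 0.0873 (adjusted p = 2.45e-06). Their ER counterparts *Hspa5* (0.04) and *Hsp90b1* (-0.32) are given above, and the difference between compartments was not tested.

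Library Mock 2 deviated from the other Mock libraries by gene length. The deviation of a library was taken from the mean of the other libraries of its group. Over the 35 tested genes, Spearman's rho between exon length and this deviation was -0.83 in Mock 2 and 0.54, 0.68 and 0.66 in Mock 1, 3 and 4. Over all 11189 genes it was -0.62 in Mock 2. Each deviation uses the other libraries of the group, so the 4 values are bound to each other. The opposite signs in the other Mock libraries are therefore not independent of Mock 2. In GC7 1 to 4 the values over the 35 genes were 0.11, 0.35, -0.01 and -0.47, and GC7 4 was at -0.32 over all genes. The short genes *Fkbp2* (1640 exon bases), *Sec61b* (1271), *Sdf2l1* (1108) and *Creld2* (1366) were high in Mock 2, and the long genes *Ern1* (8173) and *Sel1l* (8555) were low. Without Mock 2 the log2 fold changes were -0.74 for *Fkbp2*, -0.48 for *Sec61b*, -0.75 for *Sdf2l1*, -0.28 for *Creld2*, 0.50 for *Ern1* and 0.53 for *Sel1l*, and each of them was still called. Between the groups, the called genes that rose had 4693 (*Canx*) to 8555 exon bases, apart from *Herpud1* (2333). Those that fell had 1108 to 3248 (*Xbp1*), apart from *Hsp90b1* (4032) and *Ero1l* (5285). The part of length in the changes between groups was not tested.

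**Figure D5:**
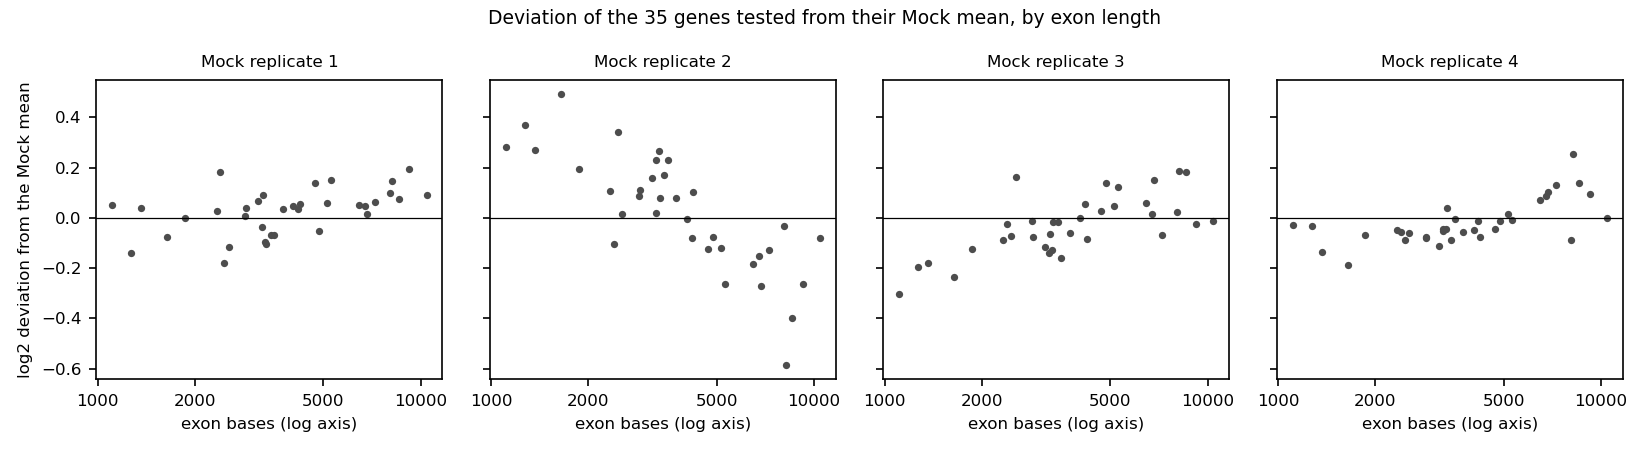
Each panel is a Mock library, with 1 point per tested gene. The horizontal axis is the exon length of a gene in bases (log axis), and the vertical axis the log2 deviation from the mean of the other Mock libraries. In Mock 2 the points fall with length (rho -0.83), and in the other panels they rise (0.54 to 0.68).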

How the data were processed

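Raw counts per gene, 1 table per library, were deposited by the authors, who trimmed reads with Cutadapt, aligned them to GRCm38 with STAR and counted them with featureCounts. The strand setting and the treatment of reads with several matches are not given in the sources used here, so members are named whose exons overlap those of a tested gene, or that have a copy among the tested genes (BLAST 2.17.0, at least 200 bases at 90% identity). All 55536 identifiers matched Ensembl 96. Total counts were 17528776 to 25284730 per library, and 3 CPM is at least 52.6 counts. Counting used no molecular identifiers.

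Genes above 3 CPM in 4 or more libraries were tested with edgeR 4.0.16 (R 4.3.3; TMM, group as the only term, quasi-likelihood F test, Benjamini-Hochberg over 11189 genes). Calls used an FDR under 0.01, with and without a 2-fold change. CPM are TMM-scaled, and deviations are of log2(CPM + 0.5). The main fit and those with RLE factors, library totals, DESeq2, limma-voom and the block were tested on simulated counts, the others not. Alternatives were library totals, RLE factors, factors computed without the mitochondrially encoded genes, DESeq2 1.42.0, limma-voom (limma 3.58.1), no filter, filterByExpr, 3 CPM in all 8 libraries, an FDR of 0.05, the replicate number as a block, and each library left out. Promoters were searched in RefSeq windows with Python 3.11.15 (pandas 2.3.3). The 36 members and all lists were chosen with earlier results of these data known. Of each further list, the 2 called genes that rose most and the 2 that fell most are named, with *Eif2ak3*, *Atf4*, *Ddit3* and the KDEL receptors whatever their values, and *Ero1lb*, *Atf3* and *Chac1* were added after their values were seen. Protein sequence features were not analysed here.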

Additional observations from a re-analysis of the deposited data

Results flagged for a closer look

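Of 88 groups of 4 libraries examined for a library far from the other 3 (gap to the next library divided by the range of the group, read against Dixon's 95% limit), 7 passed, where chance gives about 4.4. Mock 2 accounts for 4 of them. It was the lowest Mock library for *Edem1* (ratio 0.905) and *Ern1* (0.845), the lowest for *Ero1l* to *P4hb* (0.839), and the highest for *Sec61b* to *Sec61a1* (0.899). These genes are long where Mock 2 is low and short where it is high, as in the plot of deviation by exon length, and the part of length in these values was not tested. GC7 3 was the lowest GC7 library for *Pdia3* (0.845) and the highest for *Canx* to *Calr* (0.849), and GC7 4 was the lowest for *Sel1l* to *Syvn1* (0.837).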

How the results depend on the processing

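Across 17 alternative settings, 595 fold changes of the 35 genes tested were recomputed, of which 573 kept direction and side of the threshold, 8 of genes not called passed it (*Dnajc3*, *Derl2*, *Manf* and *Ssr3*, under library totals, DESeq2 or a library left out), 1 lost its call and 13 changed sign, all of the latter in genes not called. Of the 14 called genes, 13 kept direction and call under every setting, and *Creld2* lost its call with library totals (-0.26, adjusted p = 0.0106). Library totals moved the median of all genes to 0.11, that of the ER genes to 0.065, and the shares of all genes called to 29.9% higher and 18.4% lower, against 23.0% and 23.5% with TMM. With them *Sil1* (0.0041), *Dnajb9* (0.0032), *Hspa13* (0.082), *Pdia4* (0.055), *Ppib* (0.040) and *Ssr1* (0.065) changed sign. With no filter, *Derl3* was also tested and was called lower, and the genes lower by more than 2-fold were 2. The ER genes were then 6 higher and 9 lower, against 11.8% and 11.9% of the 28350 genes tested without the filter. With filterByExpr *Derl3* was tested too but not called, with 6 higher and 8 lower, against 19.3% and 21.5% of all genes. ERSE-II was in 1 window when only the 250 bases before the start were read, since the match in *Dnajb11* lies after it. Leaving out 1 library at a time gave ranges of -0.099 to 0.011 for *Ppib*, -0.082 to 0.035 for *Hspa13*, -0.020 to 0.067 for *Ssr2* and -0.053 to 0.012 for *Ssr1*, and counts of 6 higher and 8 to 9 lower. The labels do not say whether same-numbered libraries share an animal or a culture. The correlation of deviations between same-numbered libraries was 0.27, -0.12, 0.20 and -0.18, which does not show a pairing and cannot exclude one. In the fit with a replicate block 14 of the ER genes were called, all of them called without it (21.3% higher and 22.2% lower over all genes). DESeq2 called 17 of the 35 genes, and 25.1% of all genes higher and 25.6% lower. The cause was not tested. Protein features were not run. The filter at 3 CPM left out *Derl3*.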
